A study of Mus musculus with 35 samples.

Results

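Transcripts of pancreatic acinar enzymes were followed array by array in RNA of the small intestine. Of the 10 genes listed (Prss2, Ctrb1, Cela1, Cela2a, Cela3b, Cpa1, Cpb1, Pnlip, Cel and Clps), 9 were matched by gene symbol to 17 of the 45037 non-control probesets, and Pnlip, the pancreatic triglyceride lipase, was not analysed here. All 17 probesets were expressed, that is, they had a mean above log2 5 in at least 1 group, as did 15384 probesets of the whole series, which cover 8626 genes. The members were selected on measured values, since their levels were known to differ widely between these 35 arrays, so the levels and the calls of these genes are given as a description.

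Each array was hybridized with RNA from a small intestine taken over its full length from 1 male mouse of 4 months, killed 6 h after an oral gavage. PPARα-null mice were of the 129S4/SvJae strain and wild-type mice of 129S1/SvImJ, so that genotype and substrain cannot be told apart. All mice had eaten the same modified AIN76A diet with olive oil beforehand and had been fasted for 4 h. The gavage, 400 μl, held WY14643, a synthetic PPARα agonist (4 PPARα-null and 4 wild-type mice), or a triacylglycerol of a single fatty acid, namely eicosapentaenoic acid (EPA, 5 and 5), docosahexaenoic acid (DHA, 4 and 5) or oleic acid (OA, 4 and 4). WY14643 was suspended in carboxymethyl cellulose, whereas the triacylglycerols made up the other gavages. WY14643 and fatty acid groups thus also differ in vehicle and fat load. No untreated mice were analysed here. According to the methods the intestines were flushed and remaining fat and pancreatic tissue were taken off before RNA was isolated.

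Acinar cells of the exocrine pancreas make digestive enzymes for the gut lumen and store them in granules, the proteases as inactive zymogens. Trypsinogen is cleaved to trypsin in the duodenum, and trypsin in turn activates the other zymogens. The genes are transcribed at very high rates in acinar cells and share control by PTF1, a factor complex that binds a CACCTG-type E-box together with a TTTCCC box. Intestinal epithelium is not their main site of expression, and mouse pancreas lies as thin, diffuse lobes in the mesentery along the duodenum.

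The proximal promoters are shown because these genes are known for a shared promoter element. A link between the motifs and the course of the transcripts over the arrays was not tested. Of the 10 genes, 9 had an entry among the RefSeq promoters (build GRCm38.p6), the exception being Clps. Both motifs, CACCTG and TTTCCC, were searched on both strands in the 250 bases before the transcription start, and matches of the 2 motifs can share at most 1 base. CACCTG was found in 6 of the 9 promoters and in 17.2% of the other 32842 promoters, TTTCCC in 6 of 9 and in 21.9%, and both in 4 of 9 and in 3.6%. A match is a run of letters and not a measured binding site. The 4 promoters with both motifs are given 5′ to 3′ on the gene's strand, with the motifs in capitals on either strand (CAGGTG and GGGAAA are the reverse complements).
Cela1: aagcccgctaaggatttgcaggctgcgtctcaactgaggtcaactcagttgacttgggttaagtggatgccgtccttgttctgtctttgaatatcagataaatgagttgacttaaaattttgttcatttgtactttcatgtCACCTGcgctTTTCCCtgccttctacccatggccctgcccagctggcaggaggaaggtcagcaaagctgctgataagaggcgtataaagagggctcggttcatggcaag
Cel: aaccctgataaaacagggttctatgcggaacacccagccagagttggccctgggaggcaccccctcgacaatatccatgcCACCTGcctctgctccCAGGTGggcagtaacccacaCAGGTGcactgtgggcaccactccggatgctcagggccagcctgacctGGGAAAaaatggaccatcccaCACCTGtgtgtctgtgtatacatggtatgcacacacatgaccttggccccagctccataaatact
Prss2: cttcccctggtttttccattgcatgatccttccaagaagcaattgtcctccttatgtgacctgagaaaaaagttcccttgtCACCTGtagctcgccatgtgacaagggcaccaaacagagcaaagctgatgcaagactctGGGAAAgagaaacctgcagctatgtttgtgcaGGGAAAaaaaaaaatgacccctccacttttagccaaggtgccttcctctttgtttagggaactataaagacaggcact
Cela2a: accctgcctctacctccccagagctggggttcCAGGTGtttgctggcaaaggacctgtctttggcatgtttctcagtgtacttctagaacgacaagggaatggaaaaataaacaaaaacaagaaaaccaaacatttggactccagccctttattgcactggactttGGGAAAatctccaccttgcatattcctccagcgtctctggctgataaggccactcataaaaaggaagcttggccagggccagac
The Cela1 window lies at chr15:100687921-100688170 (minus strand), that of Cel at chr2:28563404-28563653 (minus), that of Prss2 at chr6:41521526-41521775 (plus) and that of Cela2a at chr4:141826006-141826255 (minus). In Cela1 the motifs stood 4 bases apart on the same strand. The nearest copies were 15 bases apart in Cel, 53 in Prss2 and 128 in Cela2a. Cel held 4 copies of CACCTG, and the other 3 promoters held 1 each.

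Some arrays stood apart. The EPA replicate 5 arrays of both genotypes and PPARα-null OA replicate 1 went against their genotype label: Cyp4a10, a PPARα target, read 9.91 (log2) in PPARα-null EPA replicate 5 and 10.61 in PPARα-null OA replicate 1, against 1.81 in wild-type EPA replicate 5. The probeset also matches a neighbouring gene of the family. The main genotype results are therefore given with and without these 3 arrays. On wild-type EPA replicate 2, 7 of the 9 acinar genes lay under log2 5, and its enterocyte marker Vil1 (13.07) and duodenal marker Gip (11.89) lay within the range of the other arrays.

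The 9 genes varied over a wide range on the 35 arrays. Prss2, an anionic trypsinogen, ran over 10.88 log2 units on the 35 arrays, and Ctrb1, chymotrypsinogen B1, over 10.81. The elastases Cela1, Cela2a and Cela3b, which cut elastin and other proteins, spanned 6.59, 10.56 and 9.80 units. Among the metalloproteases, Cpa1, procarboxypeptidase A1, spanned 11.29 units and Cpb1, procarboxypeptidase B1, 11.29 units. The lipid-digesting genes differed: Cel, the bile salt-dependent carboxyl ester lipase, spanned 10.58 units and Clps, the colipase that anchors pancreatic lipase to fat droplets, 3.49 units. Without wild-type EPA replicate 2, the spans fell to between 3.20 (Clps) and 7.39 (Cel), which corresponds to between 9.21-fold and 167-fold. In a bulk sample fewer acinar cells and less RNA per acinar cell cannot be told apart.

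Cpa1, given here as the example for the proteases, read 6.62, 8.87, 8.16 and 9.96 (log2) in PPARα-null mice after WY14643, against 9.10, 9.76, 9.50 and 11.50 in wild-type mice. After EPA it read 8.86, 12.09, 9.44, 10.69 and 11.63 in PPARα-null mice, against 12.77, 2.10, 9.94, 9.46 and 11.29 in wild-type mice. The groups overlapped under both treatments, and the single array at 2.10 set the wide spread of the wild-type EPA group. After DHA it read 10.42, 10.29, 9.66 and 11.45 in PPARα-null mice, against 13.16, 9.39, 10.30, 8.48 and 12.08 in wild-type mice. After OA it read 12.08, 12.87, 13.39 and 13.08 in PPARα-null mice, against 11.21, 11.94, 12.54 and 10.30 in wild-type mice. The OA groups overlapped as well, through PPARα-null replicate 1 at 12.08, which goes against its label; without it they did not overlap. The probesets that were highest, Cela3b among them, came within 1 unit of the highest value in the file (15.03), where differences are compressed.

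**Figure D1:**
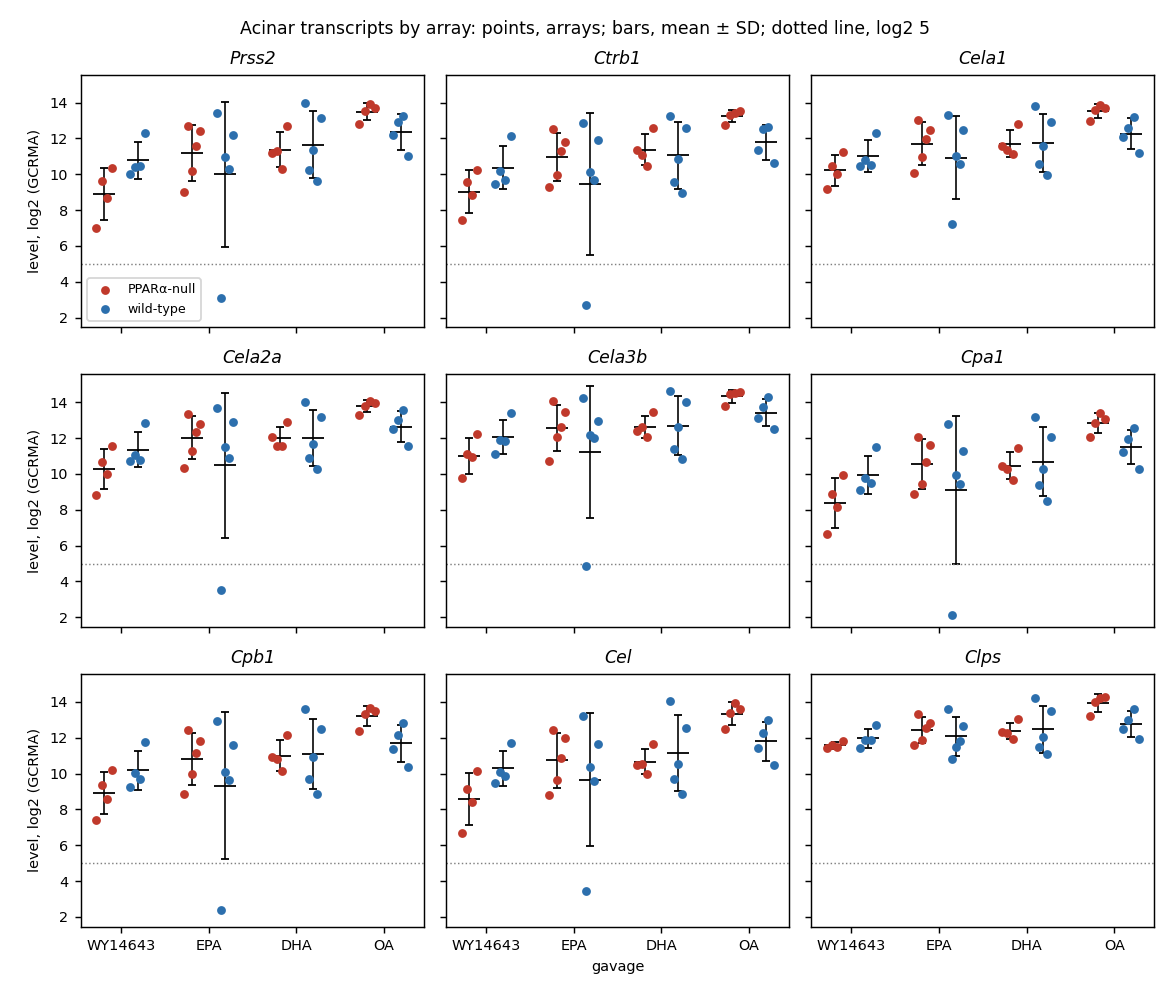
Level of each of the 9 acinar genes (y axis, log2 GCRMA estimate, main probeset) by gavage (x axis), with PPARα-null arrays in red left of wild-type arrays in blue; points are arrays, bars the mean ± SD of the group, and the dotted line log2 5. Clps spans 3.49 units and the other genes between 6.59 and 11.29, and wild-type EPA replicate 2 lies under the dotted line for 7 of the 9 genes.

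The spread within groups was among the widest on the array. After group means were taken out, the SD of Cpa1 was 1.97 log2 units and that of Cpb1 1.97, which ranked 11 and 12 among the 15384 expressed probesets, whose median SD was 0.213. Prss2, Ctrb1, Cel, Cela2a and Cela3b ranked 13, 14, 15, 23 and 30, Cela1 57 and Clps 239. Differences between the 8 groups took 34.1% of the sum of squares of Cpa1, against a median of 42.7% over all expressed probesets. Wild-type EPA replicate 2 weighs heavily on these SDs and on this share. The SD of Cpa1 was 4.12 within the wild-type EPA group and between 0.56 and 1.92 within the other groups. The share without that array was not computed, so it is not read as low or high.

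The genes moved together over the arrays. With group means removed, Pearson's r over the 35 arrays ran from 0.776 to 0.998 for the 36 pairs of members (median 0.987), and from 0.911 to 0.996 without wild-type EPA replicate 2. The points share the array and its tissue piece, so these values are a description. Clps followed the others with the lowest slope. Over the 34 arrays without wild-type EPA replicate 2, a step of 1 log2 unit in the mean of the other members went with 0.58 units in Clps, 0.87 in Cela1, 0.88 in Cela3b and 0.91 in Cela2a, and with between 1.09 (Ctrb1) and 1.23 (Cel) in the other genes.

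Wild-type EPA replicate 2 separated the members most clearly. On that array Cpa1 read 2.10, Cpb1 2.40, Ctrb1 2.72, Prss2 3.08, Cel 3.47, Cela2a 3.52 and Cela3b 4.84, all under log2 5. Cela1 read 7.25 there and Clps 10.81, and the second Clps probeset read 9.67. Clps too had its lowest value of the 35 arrays there, but it and Cela1 stayed above log2 5. The array with the next lowest member mean was PPARα-null WY14643 replicate 1, with 6.62 for Cpa1, 7.02 for Prss2, 9.18 for Cela1 and 11.44 for Clps.

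**Figure D2:**
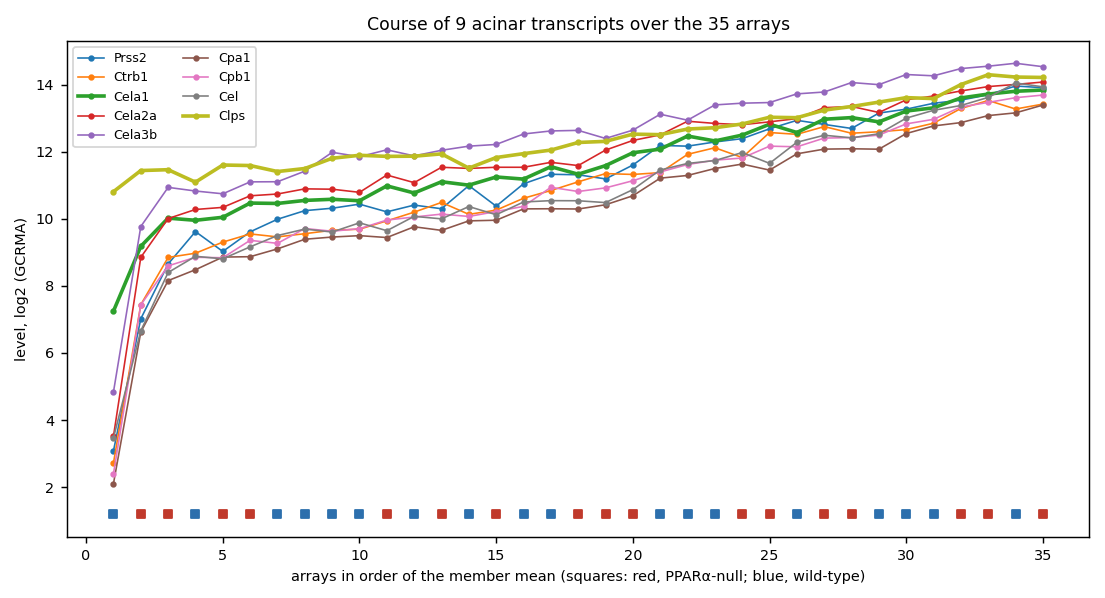
Levels of the 9 acinar genes (y axis, log2 GCRMA estimate) on the 35 arrays, placed in order of the mean over the 9 genes (x axis); squares mark PPARα-null arrays in red and wild-type arrays in blue. The lines run together above the lowest array, with Clps (thick yellow-green) and Cela1 (thick green) the flattest at the low end.

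The mean over the 9 genes (the member mean) ran from 4.47 in wild-type EPA replicate 2 to 13.89 in PPARα-null OA replicate 3. It averaged 9.66 ± 1.09 in PPARα-null and 10.89 ± 0.97 in wild-type mice after WY14643 (SD, n = 4 each), and 11.45 ± 1.29 in PPARα-null and 10.26 ± 3.43 in wild-type mice after EPA (n = 5 each). After DHA it was 11.51 ± 0.73 in PPARα-null (n = 4) and 11.62 ± 1.76 in wild-type mice (n = 5). After OA it was 13.53 ± 0.46 in PPARα-null and 12.25 ± 0.91 in wild-type mice (n = 4 each). The genotype difference thus had no constant sign: it was -1.23 after WY14643, 1.19 after EPA, -0.11 after DHA and 1.28 after OA. After EPA it was -0.25 without wild-type EPA replicate 2, so that this single array set its sign. Without the 3 arrays that go against their label it was 1.45 after EPA and 1.50 after OA. The value of 1.45 still holds wild-type EPA replicate 2, with its member mean of 4.47.

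None of the 9 genes was called between the genotypes (limma, adjusted p under 0.05 over all expressed probesets). This was 0 of 9 after WY14643, where 7.56% of all genes were called, and 0 of 9 after EPA, where 0% were. After DHA it was 0 of 9 with 8.2% of all genes called, and after OA 0 of 9 with 0.498%. At an unadjusted p under 0.05, 1955, 1044, 2365 and 1296 of the 8617 genes outside the members passed after WY14643, EPA, DHA and OA, in this order. Among the 9 members the count was 0 after WY14643, EPA and DHA and 1 after OA. That gene was Clps, which read 13.24, 14.00, 14.21 and 14.30 in PPARα-null mice, against 12.51, 13.02, 13.61 and 11.94 in wild-type mice, a difference of 1.17 with an SE of 0.54 and a limma adjusted p of 0.398. The standard errors limit what these contrasts can show: for Cpa1 the difference was -1.56 with an SE of 1.31 after WY14643 and 1.36 with an SE of 1.31 after OA. These SEs rest on a spread shared by all 8 groups, so wild-type EPA replicate 2, in neither contrast, widens them. The SDs of Cpa1 in PPARα-null and wild-type mice were 1.40 and 1.06 after WY14643 and 0.56 and 0.97 after OA. Clps, at 10.81 on that array, had a smaller within-group SD (0.81) and SE. The counts remained 0 without the 3 arrays that go against their label.

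Between agonists a single comparison held called members. In PPARα-null mice all 9 genes were lower after WY14643 than after OA, in a comparison in which 31.5% of all genes were called. Agonist, vehicle and fat load cannot be told apart in it. Cel, the gene with the largest difference, read 6.66, 9.16, 8.40 and 10.12 after WY14643, against 12.49, 13.38, 13.93 and 13.62 after OA, a difference of -4.77 with an SE of 1.26 (limma adjusted p = 0.00629), or 27.3-fold lower. Clps had the smallest difference and the smallest adjusted p: it read 11.44, 11.59, 11.46 and 11.83 after WY14643, against 13.24, 14.00, 14.21 and 14.30 after OA (-2.36, SE 0.54, limma adjusted p = 0.00188). Its within-group SD over all groups was 0.81, against between 1.31 and 1.97 for the other members. Their SDs hold their low values on wild-type EPA replicate 2, outside this comparison, so the adjusted p values do not rank the 9 genes. No array of the WY14643 group reached the OA group for these genes. The adjusted p of the 9 genes ran from 0.00188 to 0.0332. The count was 9 of 9 without PPARα-null OA replicate 1 and 6 of 9 without PPARα-null WY14643 replicate 1. The median difference of the 9 genes was -4.22, against 0.04 over all genes tested.

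In the other 11 pairs of agonists 0 of 9 genes were called. Within PPARα-null mice the share of all genes called was 3.15% for EPA minus OA, 1.31% for DHA minus OA, 19.9% for WY14643 minus DHA, 37.8% for WY14643 minus EPA and 0.719% for EPA minus DHA. Within wild-type mice it was 33.8% for WY14643 minus OA, 8.01% for EPA minus OA, 4.56% for DHA minus OA, 40.5% for WY14643 minus DHA, 45.1% for WY14643 minus EPA and 0.719% for EPA minus DHA. At an unadjusted p under 0.05, members passed only in PPARα-null mice, 5 of 9 for EPA minus OA and 4 of 9 for DHA minus OA. Of the 8617 genes outside the members, 1637 passed for EPA minus OA and 1441 for DHA minus OA in these mice. The difference of the member mean in PPARα-null mice was -2.08 for EPA minus OA and -2.01 for DHA minus OA. These comparisons share the 4 OA arrays. For the interaction of genotype with each pair of agonists 0 of 9 were called, where between 0% and 1.3% of all genes were. At an unadjusted p under 0.05 at most 1 of 9 passed, and between 682 and 1014 of the 8617 genes outside the members did.

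Ratios between members on one array do not depend on how much acinar RNA the array held, as far as the genes follow it with the same slope. This condition was met only in part: over 34 arrays the slope was 1.17 for Prss2, 1.09 for Ctrb1 and 0.58 for Clps. Over the 36 pairs and the 34 arrays without wild-type EPA replicate 2, the genotype difference of the log2 ratio, averaged over the 4 agonists, ranged in size from 0.00 to 0.58, with a median of 0.19. Without the 3 arrays that go against their label it ranged from 0.00 to 0.61, with a median of 0.22. The largest value in both settings was that of Prss2 and Clps, whose slopes differ. The pair Prss2 and Ctrb1 was singled out after these values had been seen, so it is given as a description. Prss2 minus Ctrb1 was 0.09 ± 0.26 in PPARα-null arrays (SD, n = 17) and 0.55 ± 0.20 in wild-type arrays (n = 17), and without the 3 arrays it was 0.06 ± 0.25 in PPARα-null arrays (n = 15) and 0.57 ± 0.19 in wild-type arrays (n = 16). After WY14643 it read -0.42, 0.06, -0.19 and 0.12 in PPARα-null mice, against 0.53, 0.21, 0.75 and 0.17 in wild-type mice. After DHA it read -0.16, 0.21, -0.19 and 0.11 in PPARα-null mice, against 0.69, 0.69, 0.48, 0.64 and 0.56 in wild-type mice. The genotypes did not overlap under either of these treatments. On the PPARα-null arrays of lowest and highest member mean (8.27 and 13.89) the ratio was -0.42 and 0.49. On the wild-type arrays of lowest and highest member mean among those used (9.66 and 13.86) it was 0.64 and 0.69. In PPARα-null mice the ratio thus also went with the acinar level, and its part in the genotype difference was not tested.

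After EPA the Prss2 to Ctrb1 ratio read -0.28, 0.14, 0.27, 0.28 and 0.56 in PPARα-null mice, against 0.59, 0.86, 0.66 and 0.24 in the 4 wild-type mice used. The PPARα-null value of 0.56 and the wild-type value of 0.24 belong to the replicates 5, which go against their label. Without these 2 arrays the groups did not overlap. After OA the ratio read 0.06, 0.25, 0.49 and 0.17 in PPARα-null mice, against 0.81, 0.42, 0.61 and 0.43 in wild-type mice, and these groups overlapped. PPARα-null OA replicate 1, the array at 0.06, was the lowest of its group, although its Cyp4a10 level was that of wild-type arrays. The other Prss2 probesets, 3 in number and open to cross-hybridization between trypsinogens, gave the same direction, with genotype differences of -0.31, -0.41 and -0.32 against -0.46 on the main one. Genotype and substrain cannot be told apart here.

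**Figure D3:**
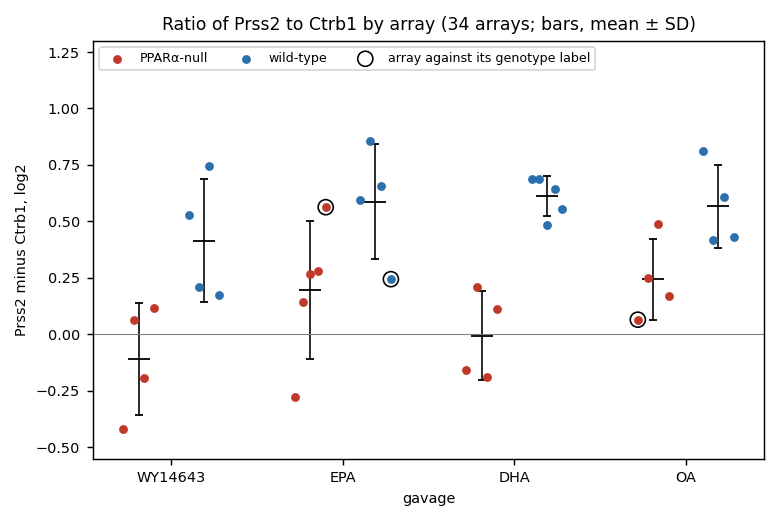
Prss2 minus Ctrb1 (y axis, log2) by gavage (x axis), with PPARα-null arrays in red left of wild-type arrays in blue, on 34 arrays; bars are the mean ± SD, and circles mark the 3 arrays that go against their genotype label. After WY14643 and DHA the genotypes do not overlap, and after EPA they overlap through the circled arrays.

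The other genes of the acinar secretory programme were taken from a list of 35, of which 17 were expressed and named by a probeset of their own. Between the genotypes 0 of 17 were called after WY14643, EPA and DHA (7.56%, 0% and 8.2% of all genes) and 1 of 17 after OA (0.498% of all genes). This was Prss3, a trypsinogen, which read 7.42, 8.86, 6.91 and 9.91 in PPARα-null mice, against 3.27, 5.95, 4.43 and 2.40 in wild-type mice (4.27, SE 0.90, limma adjusted p = 0.0253); 3 of its 4 wild-type values lie under log2 5, where the size of a difference is uncertain. Without the 3 arrays that go against their label the difference was 4.55 (SE 1.00, limma adjusted p = 0.0152), whereas the call was lost when only the groups compared were fitted and when wild-type OA replicate 3 or 4 or PPARα-null OA replicate 2 or 4 was left out. For WY14643 minus OA in PPARα-null mice 14 of 17 were called (31.5% of all genes), 13 of them lower, with a median of -4.50 against 0.04 over all genes tested. The exception was Spink1, the trypsin inhibitor, which was 0.16 units higher. For EPA minus OA in PPARα-null mice Klk1, Pla2g1b and Prss3 were called (3.15% of all genes), and for DHA minus OA Klk1 and Prss3 (1.31% of all genes), all lower.

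The genes nearest to the members over the 35 arrays were ranked by Pearson's r with the member mean after group means had been removed. Each was taken on its probeset of highest r. Of 8617 genes outside the members, 6 had r above 0.9 and 10 above 0.8, and the same 10 were above 0.8 without wild-type EPA replicate 2. The first were 2210010C04Rik (0.993), Pnliprp1, a lipase-related protein (0.992), Ctrl, a chymotrypsin-like protease (0.991), Ctrc, chymotrypsin C (0.991), and Sycn, syncollin of the zymogen granule (0.971). Rnase1, the secreted ribonuclease, had 0.908, Pla2g1b, pancreatic phospholipase A2, 0.863, Gp2, the glycoprotein of the granule membrane, 0.862, Pdia2, a protein disulfide isomerase, 0.835, and Cuzd1, a zymogen granule protein, 0.812. There was a gap to the next genes, Crip2 (0.681), Reg2 (0.665), Reg3d (0.662), Klk1, a kallikrein (0.638), and Vtn, vitronectin (0.633). Pla2g1b ran from 1.69 to 10.79 and Pnliprp1 from 3.70 to 13.44, whereas Crip2 stayed between 6.76 and 7.62. Probesets shared by several amylase genes (r = 0.97, from 7.23 to 14.69) and by Try4 and Try5 (r = 0.99, from 3.90 to 14.36) had the same course.

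Not all genes listed as acinar followed the members. Reg1 stayed between 13.36 and 13.72 (r = 0.23), Zg16, a lectin also made by goblet cells, between 14.22 and 14.44 (r = 0.24), and Spink1 between 13.00 and 13.63 (r = -0.13). Pnliprp2, another lipase-related gene, ran from 10.15 to 12.59 (r = 0.39). On wild-type EPA replicate 2 these 4 genes read 13.48, 14.29, 13.33 and 11.16, in the order named. Bhlha15, an acinar and secretory cell transcription factor, ran from 5.17 to 6.45 (r = 0.13), and Ptf1a, the DNA-binding subunit of PTF1, was not expressed (at most 4.47).

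**Figure D4:**
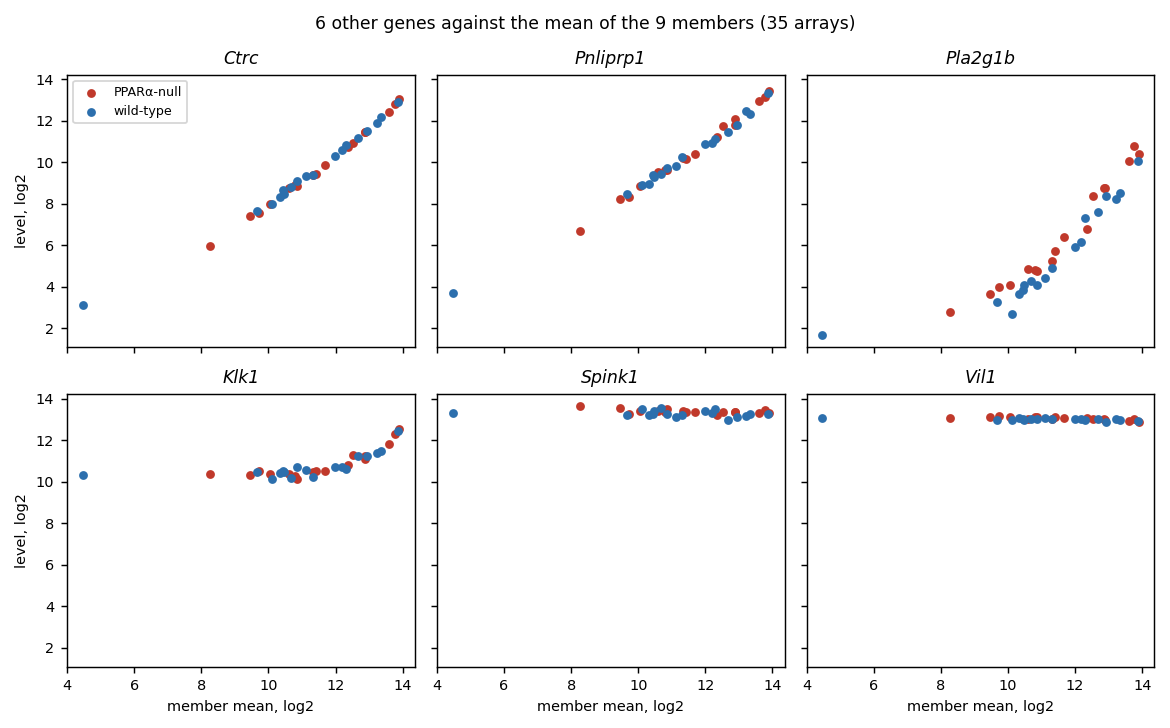
Levels of 6 other genes (y axes, log2) against the member mean (x axes, log2) on the 35 arrays, with PPARα-null arrays in red and wild-type arrays in blue. Ctrc and Pnliprp1 rise with the member mean over its whole range, Pla2g1b rises from background levels, Klk1 rises at the upper end, and Spink1 and Vil1 stay within narrow bands.

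The expressed markers of neighbouring tissues had weaker relations to the member mean. Of 10 islet genes 8 were named and 2 expressed: Gcg, proglucagon, also made by intestinal L cells, had r = 0.18, and Iapp 0.03. Ins2, insulin, was not expressed by the limit used and had r = 0.51, and 0.68 without wild-type EPA replicate 2. It reached 6.64, 5.27 and 5.15 in PPARα-null OA replicates 4, 3 and 2, whose member means were the third, the first and the fourth in rank. Ins2 lay under 5 on the other 32 arrays. The 4 expressed duct genes had r between -0.21 and 0.19, the 3 expressed fat genes between -0.11 and 0.18, with Adipoq, the defining adipocyte gene, at no more than 5.69. The 4 expressed duodenal genes had r between 0.00 (Pdx1) and 0.21 (Tff2), and their sum on the linear scale had 0.35. The 4 expressed ileal genes lay between -0.15 (Fabp6) and 0.12 (Slc10a2), and the gastric genes Gkn1 and Gkn2 had 0.17 and 0.15. The 6 expressed enterocyte genes had r between -0.43 (Vil1) and 0.10 (Apoa4). Fabp1 had -0.41, and -0.20 without wild-type EPA replicate 2. The others were more negative without that array: Vil1 had -0.48, Lct -0.43, Apoa4 -0.21, Fabp2 -0.18 and Alpi -0.16.

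Summed on the linear scale and given as log2, the members lay between 12.39 and 14.26 in PPARα-null WY14643 arrays and between 16.13 and 17.10 in PPARα-null OA arrays. The enterocyte sum lay between 16.37 and 16.39 after WY14643 and between 16.37 and 16.44 after OA in these mice, the duodenal sum between 13.30 and 13.62 after WY14643 and between 13.41 and 13.67 after OA, and the fat sum between 10.47 and 10.64 after WY14643 and between 11.00 and 11.47 after OA. The gastric sum lay between 9.89 and 11.56 after WY14643 and between 11.46 and 13.62 after OA, the ileal sum between 12.76 and 13.53 after WY14643 and between 13.40 and 13.68 after OA, and the islet sum between 9.53 and 9.96 after WY14643 and between 9.65 and 10.49 after OA. The duct sum lay between 12.84 and 12.95 after WY14643 and between 13.01 and 13.20 after OA. The group means of the duct, fat, gastric, ileal and islet sums were thus lower after WY14643, as was that of the acinar genes. The gastric mean was 10.86 after WY14643 and 12.21 after OA. The enterocyte mean (16.38 against 16.40) and the duodenal mean (13.49 against 13.54) were lower by less, and the mean of the Paneth cell genes was higher (15.07 against 14.91). The part of these tissues in the result was not tested.

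To see how the calls depend on the acinar level, the member mean of each array was entered as a covariate in the same limma model. A lost call does not show that acinar RNA touched the gene, since the covariate can also raise the SE where the groups compared differ in it. The slope of the member mean was called in 19 of 8617 genes outside the members (0.22%), 15 with a positive and 4 with a negative slope. In alternatives added after the data had been seen, it was called in 36 genes (32 positive) with the mean of the linear member values as the covariate and in 26 (24 positive) without wild-type EPA replicate 2. The slope was 1.11 for 2210010C04Rik, 1.08 for Ctrc, 1.03 for Pnliprp1 and 0.71 for Rnase1, against 0.07 for Crip2 (limma adjusted p = 0.0466). None of the 283 barrier family genes (transporters and phase I and II enzymes) had r above 0.5 with the member mean. Nat9, an N-acetyltransferase, was nearest (0.457), followed by the transporters Slc7a15 (0.411), Slc41a1 (0.385) and Slc5a12 (0.377), the last of which dropped to -0.04 without wild-type EPA replicate 2.

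After WY14643 and DHA the genotype contrasts kept most of their calls under this covariate. After WY14643 617 genes were called with the covariate and 652 without it, 582 of them shared, and after DHA 691 with and 707 without, 675 shared. After EPA the count was 0 either way. After OA 19 were called with the covariate and 43 without it, and all 19 were among the 43; of barrier family genes 1 was called with and 3 without. Without the 3 arrays that go against their label, 201 genes were called after EPA with the covariate and 179 without it (162 shared), and after OA 112 with and 158 without (112 shared); this setting with the covariate was added after the data had been seen. The 10 genes with r above 0.8 held no call without the covariate in any genotype contrast. With it a single one was called, Sycn after DHA. On its probeset of highest r the genotype difference was -1.03 at an equal member mean (limma adjusted p = 0.0297). Without the covariate the difference on that probeset was -1.14 with a limma adjusted p of 0.615. On the Sycn probeset of highest mean it was -0.99 without the covariate (limma adjusted p = 0.638).

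The largest share of calls was lost in the genotype contrast after OA, 24 of 43. In PPARα-null mice the contrasts against OA came next. For WY14643 minus OA 1311 genes were called with the covariate and 2705 without it (1282 shared), and of barrier family genes 73 with and 121 without (72 shared). For EPA minus OA the counts were 128 with and 272 without, and for DHA minus OA 67 with and 113 without. WY14643 minus DHA had 1195 with and 1717 without, and WY14643 minus EPA 2910 with and 3258 without. With the linear form, added after the data had been seen, the calls were 546 for WY14643 minus OA, 51 for EPA minus OA and 13 for DHA minus OA. The member means of the WY14643 and OA groups did not overlap, nor did those of DHA and OA, so that acinar level and gavage cannot be told apart there and the covariate also takes up part of the difference between the groups. In wild-type mice WY14643 minus OA had 2756 calls with the covariate, against 2919 without it, and WY14643 minus EPA 3916, against 3894.

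**Figure D5:**
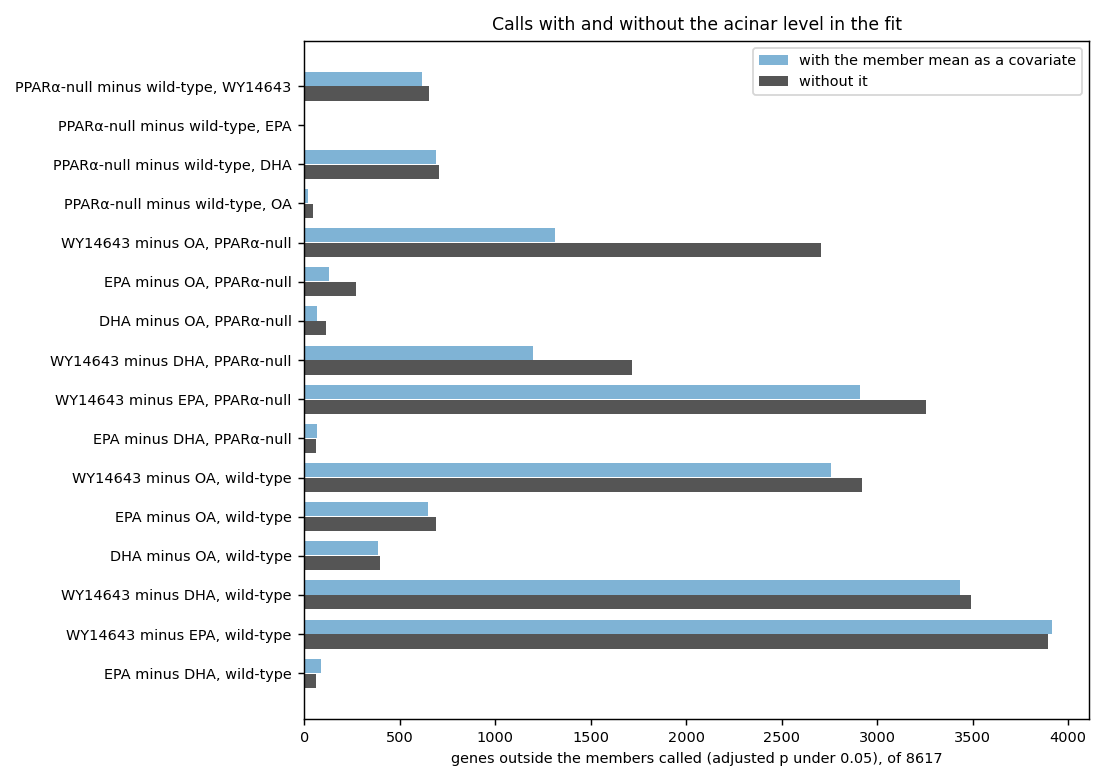
Number of genes outside the members called at an adjusted p under 0.05 (x axis, of 8617) in each comparison (y axis), with the member mean as a covariate (light bars) and without it (dark bars). The bars differ most for WY14643 minus OA in PPARα-null mice, with 1311 and 2705 calls.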

How the data were processed

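The authors had hybridized RNA of 35 small intestines to Affymetrix whole-genome mouse arrays and deposited log2 expression estimates made with GCRMA, which corrects background, normalizes between arrays and summarizes probesets; these were used unchanged. Its version is not given in the sources used here. Values ran from -0.17 to 15.03, array medians from 2.83 to 2.88. The number of arrays limits the precision. Symbols came from the platform annotation: of 45037 probesets 34945 had 1 symbol, 932 several and 9160 none.

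With limma 3.58.1 in R 4.3.3, 1 linear model with a mean for each of the 8 groups was used (eBayes with intensity trend). Probesets with a group mean above log2 5 (32 on the linear scale) entered the Benjamini-Hochberg adjustment, and a gene counted as called if any of them had an adjusted p below 0.05. Members and marker genes were described on their probeset of highest mean, for members the highest of those expressed. Genes ranked by r with the member mean were described on their expressed probeset of highest r. SE is that of the contrast. The replicates are separate mice. The model was tested on simulated data.

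The members and all lists were chosen with earlier results of these data known. Named genes were the members, the 15 other genes and up to 12 barrier family genes of highest r with the member mean, up to 4 genes of highest mean from each marker list, and Cyp4a10; others, such as Prss3, were named after their values were seen. The alternatives covered the filter, the prior, the arrays fitted, normalization, log scale, probesets matching several transcripts, a replicate block, the 3 doubtful arrays, each array left out, and the member mean as a covariate; its linear form, and its use without wild-type EPA replicate 2 or without the 3 doubtful arrays, were added after seeing the data.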

Additional observations from a re-analysis of the deposited data

Results flagged for a closer look

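Of 80 sets of values tested (9 genes and their mean in 8 groups of 4 or 5 arrays, with the gap of the outermost array set against the range of its group), 5 held an array far from the others, and chance alone gives about 1 in 20; the genes are strongly correlated, so the sets are not independent. In wild-type mice after EPA, replicate 2 was far below the others for Cela2a (3.52, a gap of 0.726 of the range) and for Cela3b (4.84, 0.758). In wild-type mice after WY14643, replicate 4 was far above the others for Cela1 (12.32, 0.833) and for Cela2a (12.84, 0.839). In PPARα-null mice after OA, replicate 1, an array that goes against its genotype label, was far below the others for Cela3b (13.78, 0.908). No member had a called difference of the genotype effect between agonists.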

How the results depend on the processing

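The count of 0 members called between the genotypes held for each agonist under each alternative run, each left-out array among them. For the pairs of agonists the 9 calls became 15 when only the groups compared were fitted, 5 of the added ones for DHA minus OA in PPARα-null mice, and ranged from 6 (without PPARα-null WY14643 replicate 1) to 12 (without wild-type EPA replicate 2). Leaving out single arrays moved the genotype difference of the member mean between -1.64 and -0.77 after WY14643, between -0.25 and 1.97 after EPA, between -0.59 and 0.45 after DHA, and between 0.90 and 1.60 after OA.

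With the replicate number as a block the DHA difference was 0.22, against -0.11 without it, and the block changed no count of members called. The numbers do not pair the mice, since the correlation of the deviations of same-numbered arrays ran from -0.44 to 0.55.

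Of the other acinar genes, 1 was called after WY14643 with only the groups compared, against 0. After OA the count was 0 with only the groups compared, 2 on log2 of the linear value plus 32 and 2 without the 3 doubtful arrays, against 1, and it ranged from 0 to 2 over left-out arrays, as it did from 0 to 1 after DHA. Of genes outside the members, 179 were called after EPA without the 3 doubtful arrays, against 0, and after OA 158 without these arrays, 19 with the member mean as a covariate and 1 with its linear form, against 43. Levels under log2 5 are of uncertain order.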
